A study of Rattus norvegicus with 12 samples.

Results

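Kupffer cells, which are the macrophages that reside in the liver, were isolated from adult male Wistar rats after chronic ethanol feeding or pair feeding, and their small RNA was sequenced. The comparison described here is between 3 libraries of basal Kupffer cells from ethanol-fed rats and 3 libraries of basal Kupffer cells from pair-fed rats, 6 of the 12 libraries in the series. Ethanol-fed rats received a Lieber-DeCarli liquid diet with ethanol for 4 weeks. Pair-fed rats received the same kind of liquid diet with maltose dextrin in place of the ethanol calories. All cells were cultured for 18 hours and then for another 5 hours, and basal means that HA35, a small hyaluronic acid, was not added in those hours. The labels number the libraries of each diet as days 1 to 3, called replicates 1 to 3 here, and do not say whether a library is 1 rat or a pool. The p-values below therefore measure the spread between these libraries, which may in part be technical.

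The members are all 30 mature miRNAs in the deposited table of the basal comparison, and the 3 miRNAs of the table for HA35 are among the same 30. They come from 24 precursors on 9 chromosomes, 7 of the 30 from chromosome 10 and 5 from the X chromosome. Every one had been kept for that table because its ethanol-fed mean lay 2-fold or more below its pair-fed mean, so the direction and the minimum size of each difference were set by that choice and are no result. miRNAs that were higher with ethanol, or that changed less, are not analysed here.

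A miRNA is cut from a hairpin precursor, which can yield a product from its 5' arm and another from its 3' arm. Products of the same hairpin, and hairpins a short distance apart on the same strand, usually come from a single transcript. The seed, bases 2 to 8 of the mature miRNA, carries most of the pairing with target mRNAs, and many miRNAs are strongly enriched in particular cell types. In the liver, miR-126 is known as an endothelial miRNA, miR-143, miR-145, miR-199a and miR-214 as miRNAs of hepatic stellate cells, smooth muscle and fibroblasts, and miR-122 as the miRNA of hepatocytes. In macrophages, several miRNAs restrain or are induced by Toll-like receptor (TLR) signaling, the pathway by which Kupffer cells respond to bacterial products.

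The sequences below are those of the loci that gave several products and of the products whose difference was largest. They are RefSeq mature sequences from the rat assembly GRCr8, where 28 of the 30 miRNAs were matched. Capitals mark the seed. The arms were assigned from the number of the product on its precursor and the strand, which gave the named arm in 6 of the 6 miRNAs whose names state it.
miR-126*: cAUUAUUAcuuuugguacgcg
miR-126: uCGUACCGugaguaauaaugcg
miR-143: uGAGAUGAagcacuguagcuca
miR-145: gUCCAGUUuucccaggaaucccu
miR-199a-5p: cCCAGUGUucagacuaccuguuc
miR-199a-3p: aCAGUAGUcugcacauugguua
miR-214: aCAGCAGGcacagacaggcag
miR-195: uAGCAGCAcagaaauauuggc
miR-497: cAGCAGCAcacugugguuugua
miR-152*: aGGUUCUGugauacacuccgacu
miR-181b-1*: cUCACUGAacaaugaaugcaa
Among the members with a sequence only miR-195 and miR-497 shared a seed, AGCAGCA, that of the miR-15/16 family. Apart from that pair, no seed stood for more than 1 member, so the list does not group into seed families.

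The deposited values are normalized log2 levels with the median of each miRNA over the 6 libraries set to 0. They are compared between libraries within a miRNA and not between miRNAs. The values of 29 of the 30 miRNAs came out as whole reads multiplied by a constant of the library, with a largest deviation of 0.0014 reads and a lowest level of 1. That floor stands for no read, or for at most 1 read in ethanol-fed replicate 1 and pair-fed replicate 2. The constant multiplied by the aligned reads of its library was close to equal in all 6 libraries, at 2188860 to 2503520. Sets of constants far from such equality were left out beforehand, so rough equality was in part a condition of the recovery. Normalized reads below are reads multiplied by the constant of their library. The read numbers were derived here from the deposited values and were not themselves in the table. miR-10a-5p could not be resolved with up to 100000 reads.

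Libraries held 2865329 to 4958302 reads in ethanol-fed and 3979946 to 6151744 in pair-fed rats, of which 1630301 to 2500767 aligned in ethanol-fed and 2006869 to 3805958 in pair-fed libraries. Pair-fed replicate 1 stood apart from the rest. It had the highest value in 25 of the 30 miRNAs, with a median over miRNAs of 1.97, against 0.026 in pair-fed replicate 2 and 0.36 in pair-fed replicate 3. Ethanol-fed replicate 1 was the lowest in 21 miRNAs, and alone in that place in 15, with a median of -0.83 against -0.15 and -0.07 in ethanol-fed replicates 2 and 3. Both are libraries of day 1. The share of reads too short to align was 22.6%, 8.81% and 7.32% in ethanol-fed replicates 1 to 3 and 24.8%, 11.7% and 25.9% in pair-fed replicates 1 to 3, so it was high in both libraries of day 1 and in pair-fed replicate 3. Its part in the differences was not tested.

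**Figure D1:**
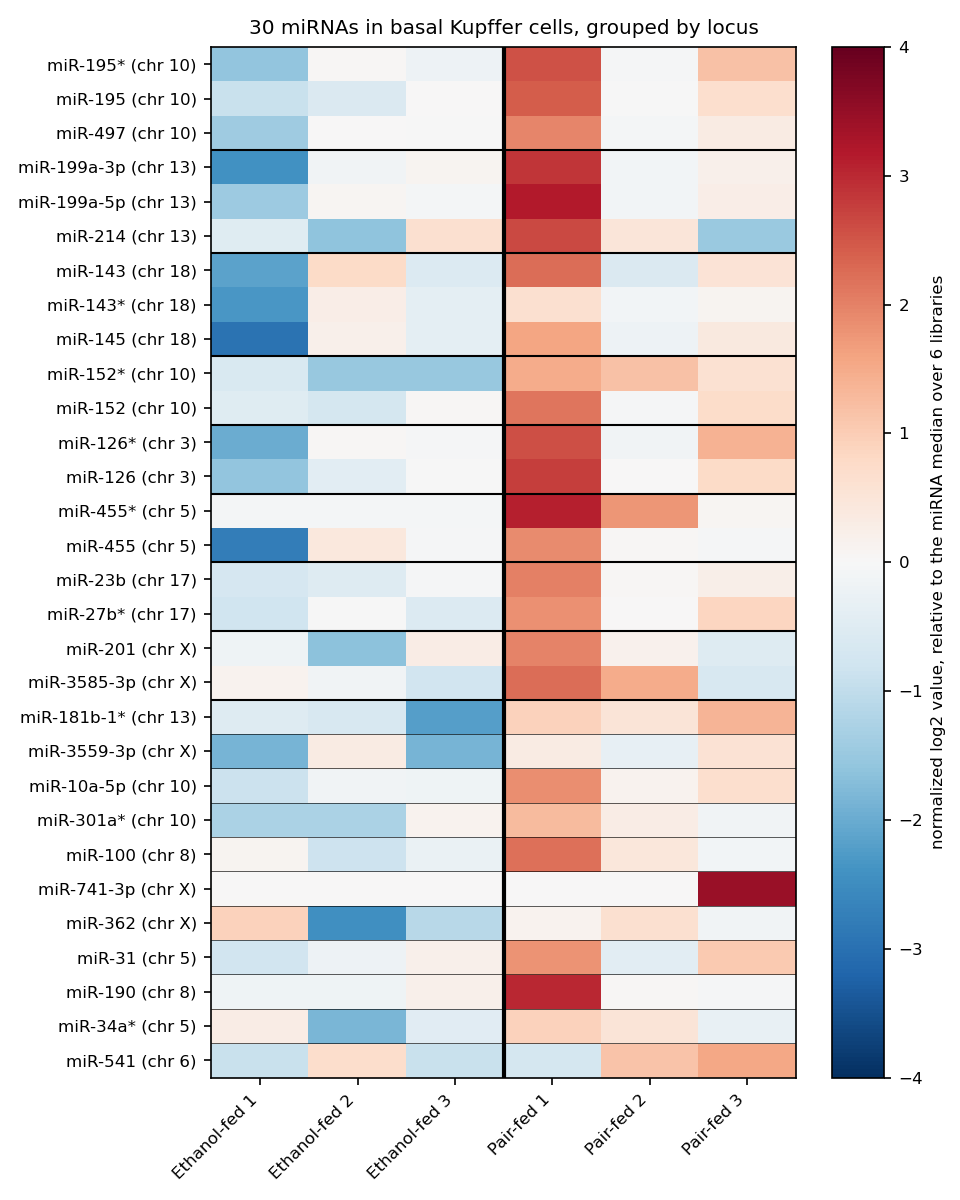
Normalized log2 value of each of the 30 miRNAs (rows, with their chromosome) in each of the 6 basal libraries (columns, ethanol-fed left of the thick line and pair-fed right of it), relative to the median of the miRNA. Thick horizontal lines bound loci with 2 or more products. Red is deepest in the column of pair-fed replicate 1 in 25 of the 30 rows, and in that of pair-fed replicate 3 for miR-741-3p.

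Differences between the diets ran from -2.30 for miR-152* to -1.02 for miR-541 on the log2 scale, with a median of -1.30. limma, fitted to all 30, gave each of them the same standard error of 0.90. None passed an adjusted p of 0.05 (0% of the 30 tested), the adjusted p being 0.25 to 0.26 and 6 miRNAs having an unadjusted p under 0.05 (20% of the 30). These 6 were miR-152*, miR-181b-1*, both arms of miR-126, miR-195* and miR-199a-3p. limma assumes that the miRNAs vary independently, whereas a single library was high in most of them. Its p-values and the confidence intervals below use 120 degrees of freedom, from a variance pooled over the 30 miRNAs. If the miRNAs rise together, these p-values are too low and these intervals too narrow. An interval that leaves out 0 is therefore not read here as a difference between the diets. In 7 of the 30 miRNAs (23.3%) every ethanol-fed library lay below every pair-fed library. For each of the 7, p was 0.1 in the two-sided exact permutation test, and 3 libraries against 3 allow no smaller p.

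Leaving out pair-fed replicate 1 changed most of the differences. Without it, 10 of the 30 miRNAs (33.3%) were still at least 2-fold lower in ethanol-fed rats, and the median difference was -0.81. Without replicate 1 of either diet the number was 6 (20%) and the median -0.61. The ethanol-fed library was the lower of the same-numbered pair on all 3 days in 14 miRNAs, on 2 days in 15 and on 1 day in miR-741-3p.

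**Figure D2:**
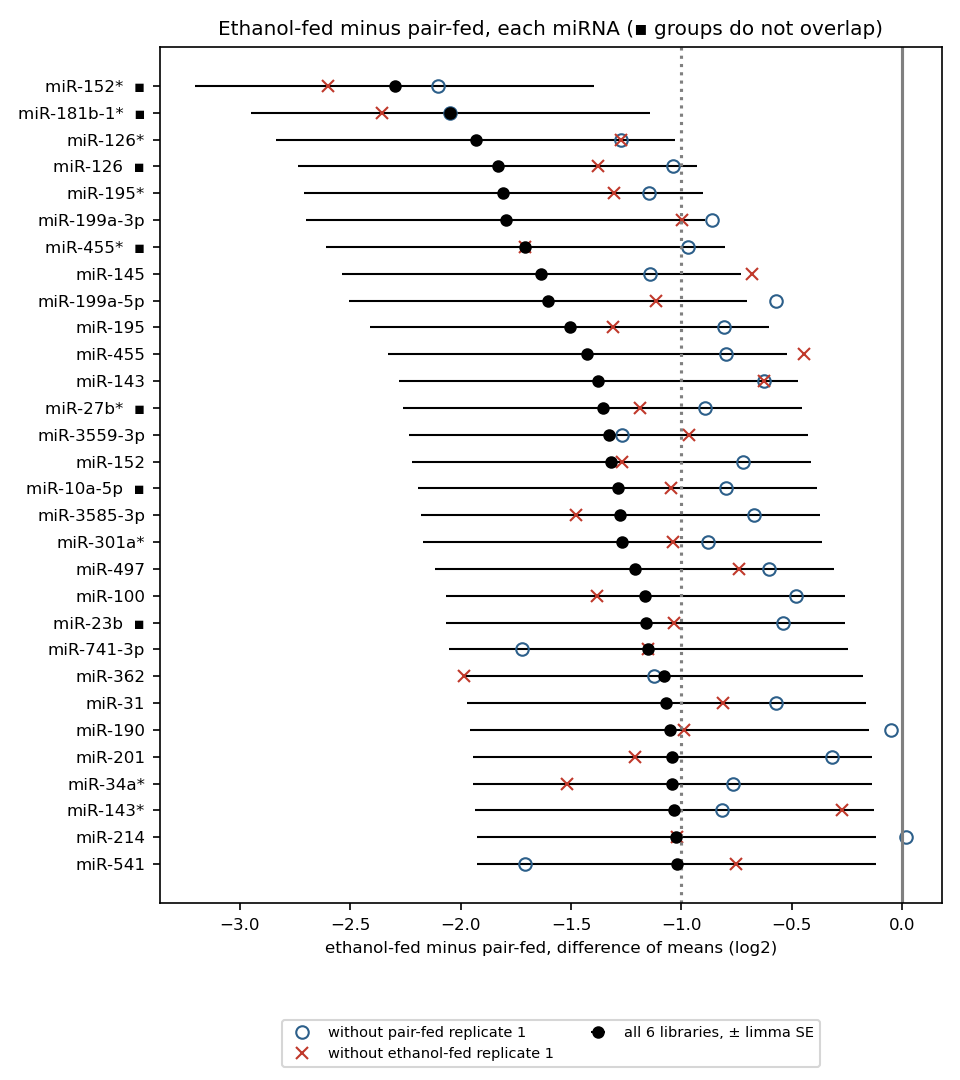
Difference between ethanol-fed and pair-fed basal Kupffer cells for each miRNA (log2, filled points with the limma standard error of 0.90, n = 3 libraries in each diet), with the value without pair-fed replicate 1 (open circles) and without ethanol-fed replicate 1 (crosses). The dotted line marks 2-fold lower and small squares mark the 7 miRNAs whose groups do not overlap. Without pair-fed replicate 1, 20 of the 30 open circles lie to the right of the dotted line, and that of miR-214 lies at 0.020.

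miR-126 and miR-126*, the arms of a hairpin inside the endothelial gene Egfl7, held most of the reads of the list, 74.9% of those recovered. miR-126 is known for its part in vascular integrity. In ethanol-fed replicates 1 to 3 it had 1741, 3876 and 5173 normalized reads, and in pair-fed replicates 1 to 3 it had 34861, 5184 and 8709. The groups did not overlap, but ethanol-fed replicate 3 and pair-fed replicate 2 were 0.0030 apart on the log2 scale, less than the standard error of 0.028 that counting gives that gap. miR-126* had 1976, 8040 and 7563 normalized reads in ethanol-fed and 46876, 7021 and 20278 in pair-fed libraries. Pair-fed replicate 2 was here below ethanol-fed replicates 2 and 3, so the groups overlapped. The means of the normalized log2 values were -0.66 ± 0.47 in ethanol-fed and 1.17 ± 0.82 in pair-fed rats for miR-126 (mean ± SEM, n = 3), and -0.66 ± 0.66 in ethanol-fed and 1.27 ± 0.79 in pair-fed rats for miR-126*. The differences were -1.83 for miR-126 (95% confidence interval -3.62 to -0.04, limma, adjusted p = 0.25) and -1.93 for miR-126* (-3.72 to -0.14, limma, adjusted p = 0.25). Both intervals use the pooled 120 degrees of freedom. In the two-sided exact permutation test, p was 0.1 for miR-126 and 0.3 for miR-126*. Without pair-fed replicate 1 the differences were -1.04 for miR-126 and -1.27 for miR-126*, and without replicate 1 of either diet -0.59 and -0.61.

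The reads of miR-126 were numerous enough to be seen in the alignment report. The report counts alignments, which outnumber the aligned reads in every library, so the values here set reads against alignments. Reads of the miR-126 arms came to 2.56%, 7.53% and 7.60% of the alignments on chromosome 3 in ethanol-fed replicates 1 to 3. In pair-fed replicates 1 to 3 they came to 38.4%, 7.56% and 16.7%. Chromosome 3 took 4.48%, 4.17% and 4.60% of alignments in ethanol-fed libraries and 6.44%, 5.31% and 5.73% in pair-fed libraries, every ethanol-fed library below every pair-fed library. With the reads of miR-126 subtracted from the alignments, the share was 4.37%, 3.87% and 4.27% in ethanol-fed libraries. In pair-fed libraries it was 4.07%, 4.93% and 4.82%, and the groups overlapped. The overlap came from pair-fed replicate 1 alone, while pair-fed replicates 2 and 3 stayed above every ethanol-fed library. Chromosome 18, which holds miR-143, had 143185, 88548 and 85380 alignments in ethanol-fed libraries, of 3452848, 2495094 and 2803300 in all. In pair-fed libraries it had 83030, 197986 and 122937, of 2909963, 5194780 and 2779922. Its diets overlapped, and pair-fed replicate 1 had the fewest. RefSeq lists another hairpin on the strand opposite to miR-126, and the use of strand in the counting was not given in the sources used here.

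miR-10a-5p, from the Hoxb region and known to restrain inflammatory signaling in endothelium, was the other endothelial member. Its normalized log2 values were -0.86, -0.14 and -0.16 in ethanol-fed and 1.87, 0.14 and 0.68 in pair-fed libraries, and the groups did not overlap. The difference was -1.29 (limma, adjusted p = 0.26), and -0.80 without pair-fed replicate 1. Endothelial products not overlapping between the diets were thus 2 of 3, beside 23.3% of the whole list. The endothelial list has only 2 entries, chosen with earlier results of these data known, and 2 of the 3 products are arms of the same hairpin. The count is therefore too small to set endothelial products apart from the list.

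The cluster of miR-143 and miR-145 lies within the smooth muscle transcript Carmn on chromosome 18, with 1.278 kb between the hairpins. Both miRNAs are known to support the contractile state of smooth muscle. miR-143 had 762, 5705 and 2308 normalized reads in ethanol-fed and 15863, 2270 and 4890 in pair-fed libraries. Ethanol-fed replicate 2 was thus the second highest of the 6, and the groups overlapped. The difference was -1.38 (limma, adjusted p = 0.26), -0.63 without pair-fed replicate 1 and 0.12, the other direction, without replicate 1 of either diet. miR-145 had 3.75, 33.4 and 22.1 normalized reads in ethanol-fed and 86.3, 25.2 and 38.2 in pair-fed libraries, with a difference of -1.63. miR-143*, the rarer arm, was at the floor in ethanol-fed replicate 1, had 4 and 3 reads in ethanol-fed replicates 2 and 3, and had 7, 8 and 5 reads in pair-fed replicates 1 to 3. Its difference of -1.03 depends on the floor. In all 3 products of this cluster ethanol-fed replicate 1 was the lowest and pair-fed replicate 1 the highest library.

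The miR-199a and miR-214 hairpins lie 5.329 kb apart on chromosome 13, on the strand opposite to Dnm3. Their products are known from mesenchymal cells and from fibrosis. miR-199a-3p had 112, 546 and 647 normalized reads in ethanol-fed and 4325, 553 and 696 in pair-fed libraries. Pair-fed replicates 2 and 3 were thus close to ethanol-fed replicates 2 and 3, and the difference of -1.80 (limma, adjusted p = 0.25) was -0.06 without replicate 1 of either diet. miR-199a-5p had 26.2, 76.0 and 68.9 normalized reads in ethanol-fed and 657, 67.3 and 87.3 in pair-fed libraries, with a difference of -1.60. Here pair-fed replicate 2 lay below ethanol-fed replicates 2 and 3, and pair-fed replicate 1 stood alone at the top. miR-214 had 7, 2 and 11 reads in ethanol-fed and 50, 22 and 3 in pair-fed libraries. It was lowest in ethanol-fed replicate 2 and next lowest in pair-fed replicate 3, and its difference of -1.02 was 0.020 without pair-fed replicate 1.

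Over the 3 endothelial products the median difference was -1.83, and over the 6 mesenchymal products it was -1.49, beside -1.27 over the other 21 and -1.30 over all 30. Pair-fed replicate 1 was above the mean of pair-fed replicates 2 and 3 by a median of 1.97 for endothelial products, 2.53 for mesenchymal products and 1.79 for the others. Ethanol-fed replicate 1 differed from the mean of ethanol-fed replicates 2 and 3 by a median of -1.36 for endothelial, -2.27 for mesenchymal and -0.19 for the other products. Without replicate 1 of either diet the medians of the differences were -0.59 for endothelial, -0.06 for mesenchymal and -0.70 for the others. No mesenchymal product had groups that did not overlap, beside 23.3% of all 30.

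As reads per 1000000 aligned reads, the miR-126 arms together came to 1586, 4808 and 5087 in ethanol-fed and 34444, 5476 and 13243 in pair-fed libraries. The 6 mesenchymal products together came to 389, 2570 and 1224 in ethanol-fed and 8848, 1316 and 2613 in pair-fed libraries, and the other 21 products to 366, 376 and 479 in ethanol-fed and 2251, 611 and 773 in pair-fed libraries. Pair-fed replicate 1 was highest in each of the 3 sums. Only the mesenchymal sum overlapped between the diets, and miR-143 held most of its reads, 28676 over the 6 libraries. The largest of the other 21 were miR-23b, with 3558 reads, and miR-100, with 2428. Each sum thus mainly describes its members with the most reads. The resolved members as a whole held 0.234%, 0.775% and 0.679% of aligned reads in ethanol-fed and 4.55%, 0.740% and 1.66% in pair-fed libraries. A smaller number of cells of a type and less RNA per cell cannot be told apart in such libraries, and the part of endothelial or mesenchymal cells in the differences was not tested. None of the miRNAs listed for hepatocytes (3 entries, miR-122 among them), for macrophages and other leukocytes (7 entries, miR-223 and miR-155 among them), for erythroid cells (3 entries) or for epithelium (7 entries) was in the table, which holds only miRNAs chosen for a lower level, so the labelled cell type could not be checked against its markers.

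**Figure D3:**
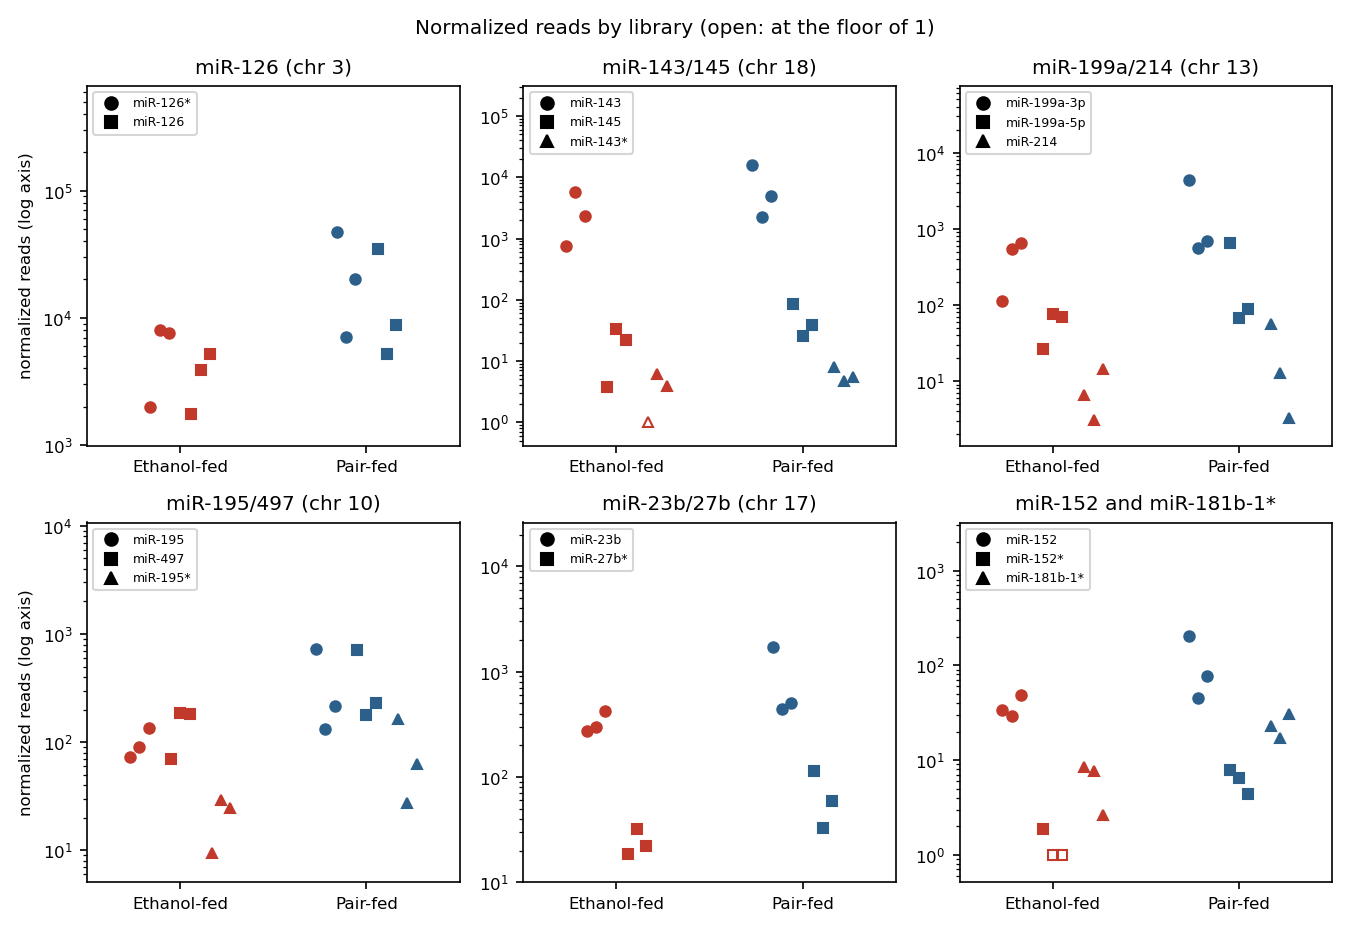
Normalized reads (log axis) of the products of 5 loci with several products, of miR-152 and of miR-181b-1*, ethanol-fed libraries in red and pair-fed libraries in blue, 1 point per library in the order of replicates 1 to 3. Open points are at the floor of 1. The first blue point, pair-fed replicate 1, is the highest of most products, and miR-152* and miR-181b-1* are the products whose groups lie furthest apart, with 1.22 and 1.01 (log2) between their closest libraries.

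miR-195 and miR-497, which share the seed given above, lie 0.255 kb apart on chromosome 10. The miR-15/16 family to which they belong is known for targeting cyclins and other cell cycle genes. miR-195 had 73.1, 89.7 and 136 normalized reads in ethanol-fed and 722, 132 and 215 in pair-fed libraries, with a difference of -1.51. Ethanol-fed replicate 3 lay just above pair-fed replicate 2, so the groups overlapped. miR-497 had 69.4, 187 and 183 normalized reads in ethanol-fed and 717, 177 and 232 in pair-fed libraries, with a difference of -1.21. Its groups overlapped through the same pair-fed library. miR-195* had 9.37, 28.9 and 24.7 normalized reads in ethanol-fed and 165, 27.5 and 63.3 in pair-fed libraries. Its difference of -1.81 (limma, adjusted p = 0.25) was -1.15 without pair-fed replicate 1 and -0.64 without replicate 1 of either diet.

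miR-23b and miR-27b* come from hairpins 0.142 kb apart in the gene Aopep on chromosome 17. miR-23b had 274, 299 and 422 normalized reads in ethanol-fed and 1731, 442 and 506 in pair-fed libraries. miR-27b* had 18.7, 31.9 and 22.1 normalized reads in ethanol-fed and 115, 32.8 and 58.9 in pair-fed libraries. Neither overlapped between the diets, although the closest libraries were only 0.066 apart for miR-23b and 0.039 for miR-27b*, less than the standard errors from counting, 0.096 for miR-23b and 0.37 for miR-27b*. The differences were -1.16 for miR-23b and -1.36 for miR-27b*, and without pair-fed replicate 1 they were -0.54 and -0.89.

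miR-152 and miR-152* come from a hairpin in Copz2 on chromosome 10. miR-152 belongs to a family known to target Dnmt1 and, in mouse dendritic cells, to restrain TLR responses. miR-152* had the largest difference of the list, -2.30 (95% confidence interval -4.09 to -0.51, limma, adjusted p = 0.25). It rests on few reads, with 2 reads in ethanol-fed replicate 1 and the floor in ethanol-fed replicates 2 and 3, against 7, 11 and 4 reads in pair-fed replicates 1 to 3. The normalized log2 means were -1.21 ± 0.30 in ethanol-fed and 1.09 ± 0.25 in pair-fed rats (mean ± SEM, n = 3). The groups did not overlap, with 1.22 between the closest libraries against a standard error from counting of 1.25, and the difference was -2.10 without pair-fed replicate 1. The abundant arm miR-152 had 33.7, 28.9 and 48.1 normalized reads in ethanol-fed and 205, 45.7 and 77.4 in pair-fed libraries. Its groups overlapped, and its difference of -1.32 was -0.72 without pair-fed replicate 1.

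miR-181b-1*, the 3' arm of the first miR-181b hairpin on chromosome 13, had the next largest difference, -2.05 (95% confidence interval -3.84 to -0.26, limma, adjusted p = 0.25). The miR-181b family is known for restraint of inflammatory signaling in endothelium, and that role was described for the 5' arm. For the 3' arm, the authors' paper cites their earlier report on Kupffer cells. There, ethanol feeding lowered miR-181b-3p and raised importin α5, which they link to stronger TLR4 responses. The paper describes that report as sequencing miRNAs and following those lowered by ethanol. Whether it used these same libraries was not stated in the sources used here, so it is not read here as separate evidence. The library counts were 9, 5 and 2 reads in ethanol-fed and 20, 29 and 28 in pair-fed libraries. The groups did not overlap, with 1.01 between the closest libraries against a standard error from counting of 0.55. Pair-fed replicate 1 was not the highest library of this miRNA, and the difference was -2.05 without it. Without replicate 1 of either diet, miR-152* (difference -2.41) and miR-181b-1* (-2.36) were the 2 miRNAs (6.67% of the 30) that passed in limma, each with an adjusted p of 0.039. That fit has 2 libraries in each diet and a standard error of 0.75 pooled over the 30 miRNAs. It was chosen after seeing the data, on a list itself chosen for lower values in these same ethanol-fed libraries. For miR-152* the ethanol-fed values left in that fit are both at the floor. The adjusted p thus describes the list and is no independent support for either miRNA.

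Of the 16 entries listed for TLR signaling, 6 were in the table, with 8 products, namely miR-31, miR-145, miR-152, miR-152*, miR-27b*, miR-199a-5p, miR-199a-3p and miR-181b-1*. The list counts either arm of an entry, and the arm in the table need not be the one for which a role was described. Of these products, miR-145 and both arms of miR-199a are also in the mesenchymal list, and miR-152 gave both arms as well. The list was chosen with earlier results of these data known. The median difference was -1.62, beside -1.30 over all 30. Without replicate 1 of either diet it was -0.49, beside -0.61 over all 30. In 3 of the 8 the groups did not overlap, beside 23.3% of all 30, and without pair-fed replicate 1 the same number, 3 of 8, was at least 2-fold lower, beside 33.3%. miR-31 had 61.9, 91.2 and 122 normalized reads in ethanol-fed and 369, 78.5 and 219 in pair-fed libraries. Its pair-fed replicate 2 lay below ethanol-fed replicates 2 and 3, and its difference of -1.07 was -0.57 without pair-fed replicate 1. RefSeq lists a hairpin opposite to miR-31, as it does for miR-214.

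miR-455 and miR-455* come from a hairpin in the collagen gene Col27a1 on chromosome 5, and are best known from cartilage. miR-455* was at the floor in all 3 ethanol-fed libraries and had 8, 6 and 1 reads in pair-fed libraries. Its groups did not overlap, but its lowest pair-fed value, a single read, was 0.13 above the floor, and no fold is given because the difference of -1.71 depends on the floor. miR-455 was at the floor in ethanol-fed replicate 1, had 6 and 5 reads in ethanol-fed replicates 2 and 3 and had 22, 12 and 6 reads in pair-fed libraries, with a difference of -1.43 (0.18 without replicate 1 of either diet).

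The X chromosome gave 5 members, all with few reads. miR-3585-3p and miR-201 come from hairpins 4.957 kb apart. miR-3585-3p had 2 reads, 1 read and the floor in ethanol-fed and 7, 8 and 1 reads in pair-fed libraries. miR-201 had 3 reads, the floor and 3 reads in ethanol-fed and 11, 6 and 2 reads in pair-fed libraries. Their differences were -1.28 for miR-3585-3p and -1.04 for miR-201, and -0.67 and -0.32 without pair-fed replicate 1. miR-741-3p, of an X-linked group of miRNAs known from mouse testis, was at the floor in all libraries but pair-fed replicate 3, where it had 10 reads, so that its difference of -1.15 rests on that library and is 0 without it. miR-3559-3p differed by -1.33 with 17 reads in all. miR-362, from a hairpin in Clcn5, differed by -1.08, and its highest library was ethanol-fed replicate 1, with 17 reads. Its difference was -0.29 once ethanol-fed replicate 2, with 1 read, was left out.

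The other 5 members were single products of their loci. miR-100, known to target mTOR and encoded near a let-7a hairpin, had 280, 146 and 216 normalized reads in ethanol-fed and 1192, 351 and 237 in pair-fed libraries. Its difference was -1.16, and -0.48 without pair-fed replicate 1. miR-301a* (from Ska2) differed by -1.27, miR-190 (from Tln2) by -1.05, miR-34a*, the minor arm of the p53-induced miR-34a, by -1.04 and miR-541 by -1.02. miR-541 was the only one of the 33 entries listed for the imprinted Dlk1-Dio3 region in the table. Without pair-fed replicate 1 the differences were -0.88 for miR-301a*, -0.05 for miR-190, -0.77 for miR-34a* and -1.71 for miR-541, so that of miR-190 rests nearly wholly on that library, where it had 8 of its 12 reads. These last 4 had 12 to 37 reads over the 6 libraries.

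The number of reads sets how far each difference can be read. Reads over the 6 libraries ranged from 10 for miR-741-3p to 85094 for miR-126*, and 15 of the 29 resolved miRNAs had fewer than 100. A library was at the floor in 11 miRNAs, with 20 floored values in ethanol-fed and 2 in pair-fed libraries, and the size of those 11 differences depends on the floor. Counting error alone gave a standard error of 0.015 to 0.67 on the difference in the miRNAs without a floored value, against the standard error of 0.90 between libraries. The reads carry no molecular identifiers, so these values cover counting error only. Of the 4 miRNAs with groups that did not overlap among those with at least 100 reads or not resolved, 3 (miR-126, miR-23b and miR-27b*) were separated by less than the standard error from counting and the fourth was miR-10a-5p. The other 3 of the 7 (miR-152*, miR-181b-1* and miR-455*) had fewer than 100 reads each.

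**Figure D4:**
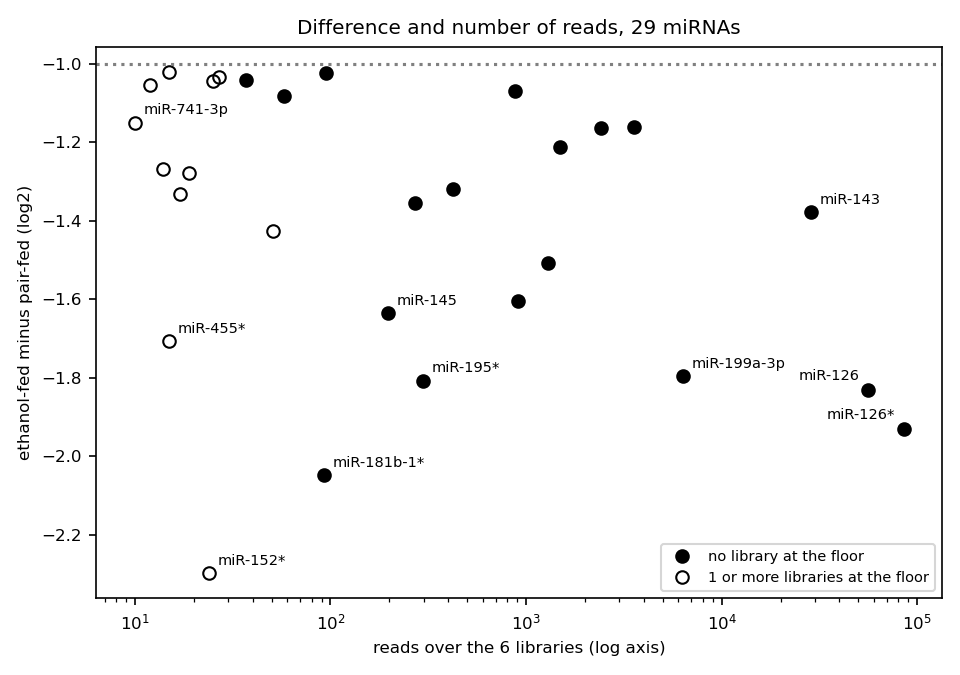
Difference between ethanol-fed and pair-fed basal Kupffer cells (log2) against the reads over the 6 libraries (log axis) for the 29 miRNAs whose reads were resolved. Open points have 1 or more libraries at the floor. The 2 largest differences, miR-152* and miR-181b-1*, have fewer than 100 reads, and the arms of miR-126 have the most.

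In 6 precursors both arms were in the table. For arms in a fixed ratio, the difference between their log2 values would be constant over libraries. Its SD over the 6 libraries was 0.39 for miR-199a, 0.40 for miR-126, 0.48 for miR-195, 0.71 for miR-143, 0.93 for miR-152 and 1.21 for miR-455, with a median of 0.60, beside a median of 1.03 over all 435 pairs of members. The SDs of miR-199a, miR-126 and miR-195 were thus at the low end, and only that of miR-455 was above the median over all pairs. An arm had few reads over the 6 libraries in each of the others, 27 for miR-143*, 24 for miR-152* and 15 for miR-455*. The 435 pairs were not matched for reads and include miRNAs with few reads or floored values. The part of read number in the SDs was not tested. The 5' arm held 53.2%, 67.5% and 59.4% of the reads of miR-126 in ethanol-fed and 57.3%, 57.5% and 70.0% in pair-fed libraries. These shares differed between libraries by more than their 95% Wilson intervals, which were at most 54.7% for ethanol-fed replicate 1 and at least 69.4% for pair-fed replicate 3, but the diets overlapped. The 5' arm of miR-195 held 88.6%, 75.6% and 84.7% in ethanol-fed and 81.4%, 82.8% and 77.3% in pair-fed libraries. That of miR-199a held 18.9%, 12.2% and 9.62% in ethanol-fed and 13.2%, 10.8% and 11.1% in pair-fed libraries. In these precursors the range of the share in ethanol-fed libraries covered or overlapped that in pair-fed libraries.

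**Figure D5:**
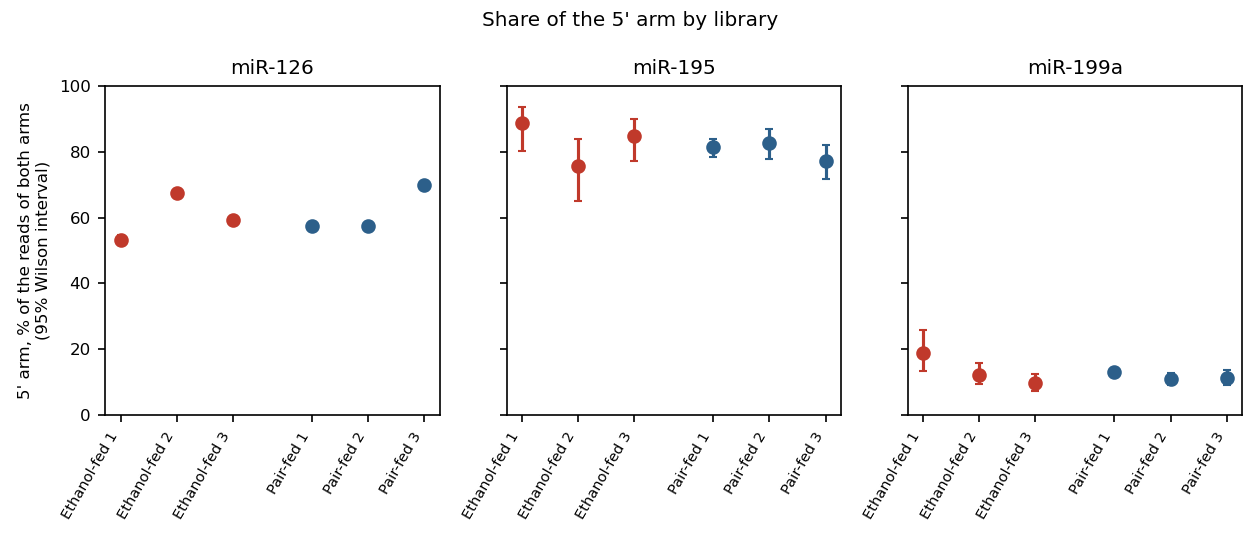
Share of the 5' arm in the reads of both arms (%) of miR-126, miR-195 and miR-199a in each library, ethanol-fed in red on the left and pair-fed in blue on the right of each panel, with 95% Wilson intervals. For miR-126 the shares run from 53.2% to 67.5% in ethanol-fed and from 57.3% to 70.0% in pair-fed libraries, so the diets overlap.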

How the data were processed

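Small RNA libraries (Illumina TruSeq) were made from cultured Kupffer cells. For each library the authors deposited log2 values, normalized and centred on the median of each miRNA, for miRNAs at least 2-fold lower with ethanol, and columns of their own fold changes and p-values, which were not used. HTSeq, DESeq and the rat build rn4 are named in the submitters' processing notes. The authors also deposited an alignment report of whole numbers of reads, whose unit is other than an expression value, for all 12 libraries. The step that normalized the values was not given in the sources used here.

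All 30 miRNAs were tested with limma (version 3.58.1, R 4.3.3) on the deposited log2 values of 6 libraries, with no filter or pseudocount and Benjamini-Hochberg adjustment over the 30 (threshold 0.05). Single miRNAs were also compared by two-sided exact permutation tests. Reads were recovered as the whole multiples of 1 constant per library that fit the values, a miRNA whose 6 counts share a factor being recovered too low. As the unit is log2, no count test was run. Both steps were tested on simulated data. For limma the simulated miRNAs varied independently and were shifted by more than any difference here. That test therefore does not cover preselected miRNAs that rise together in a library. Hairpins within 10 kb on a strand were called a cluster, by RefSeq (GRCr8), and no coordinates are given. Every miRNA of the table is named, with all 6 values for products of loci with several products, for groups that do not overlap and for the 3 largest differences. The members and the lists of markers were chosen with earlier results of these data known. Day numbers in the labels were taken to pair libraries, whose deviations correlated over miRNAs at -0.28, -0.39 and -0.35 for days 1 to 3. Alternatives were a block for the day, leaving out libraries, medians, robust limma, leaving out miRNAs with a shared lowest value, scaling to aligned reads, and miRNAs with a mean of at least 20 reads. The remaining steps ran in Python 3.11.15 with scipy 1.17.1, pandas 2.3.3, numpy 2.4.6 and matplotlib 3.10.9.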

Additional observations from a re-analysis of the deposited data

How the results depend on the processing

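The scaling to aligned reads, the fits without replicate 1 of either diet and the restriction to miRNAs with a mean of at least 20 reads were chosen after seeing the data. In limma 0 of the 30 miRNAs passed with all libraries (6 at an unadjusted p under 0.05), and 0 passed with the replicate block (lowest adjusted p 0.35, 1 unadjusted), without any single library (2 to 7 unadjusted), with the robust fit (3), without miRNAs of a shared lowest value (3 of 23), with scaling to aligned reads (8) and with the 14 miRNAs of at least 20 reads (2). Without replicate 1 of either diet 2 passed, miR-152* and miR-181b-1*. The block changed no call. The number at least 2-fold lower, 30, was 10 to 27 when a library was left out, 16 by group medians, 6 without replicate 1 of either diet and 30 with scaling to aligned reads. Of the 14 miRNAs with at least 20 reads, 4 were at least 2-fold lower without pair-fed replicate 1. The number whose groups did not overlap, 7, was 8 to 16 when a library was left out, where less has to be separated. Of the single miRNAs 25 kept their direction in every fit, and miR-741-3p was 0 by medians and without pair-fed replicate 3. The exceptions were above 0 without replicate 1 of either diet, miR-190 at 0.012, miR-455 at 0.18, miR-143 at 0.12 and miR-214 at 0.022, the last also without pair-fed replicate 1 (-2.04 to 0.020 over the fits without 1 library). The cause was not tested. The 2-fold choice of the list, 3 libraries in each diet and fewer than 100 reads in 15 miRNAs limit every value given.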
